A study of Mus musculus with 154 samples.

Results

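The effect of chromosome 10 of the A/J strain on liver gene expression was measured by comparing the 8 mice whose strain label is (B6.A10 X B6)F1 with the 20 mice labelled B6, which are 2 of the 24 strains of the whole series. B6 is the inbred strain C57BL/6J. B6.A10 is a chromosome substitution strain (CSS), an inbred line in which chromosome 10 comes from A/J and all other chromosomes come from B6. The labels name the sire first, so the (B6.A10 X B6)F1 mice had a B6.A10 sire and a B6 dam, were heterozygous for the A/J chromosome 10 and were otherwise B6. All mice were 5-week-old males that had been fasted overnight and anesthetized with isoflurane, and the labels give no other treatment and no engineered allele for either group. All 13289 genes tested were members of the comparison, of which 610 lie on chromosome 10 (cis) and 12679 lie elsewhere or have no annotated position (trans). Since 1 whole chromosome was substituted, the effect of a gene on it cannot be told apart from that of its neighbours.

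The same chromosome was present in 19 further mice, the offspring of B6.A10 sires and dams of the CSSs B6.A3 (5 mice), B6.A6 (5 mice), B6.A14 (5 mice) or B6.A17 (4 mice). Each of these double CSSs was compared with the 8 mice that had a B6 sire and a dam of the same CSS, 32 mice in all, and the 4 differences were averaged. This contrast is called the effect with a second substitution. It uses none of the 28 mice of the comparison with B6, although both come from a single model that shares the surrogate variables and the spread among mice. The difference between the 2 effects was tested in that model too.

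A chromosome substitution can change expression in 2 ways. Variants in or near a gene on the substituted chromosome can alter that gene's own transcription, splicing or RNA stability, and in a heterozygote such an effect acts on 1 of the 2 copies. By the design of the strain, genes on other chromosomes carry the same B6 alleles in both groups, and a difference in them is called trans here whatever its source. Among the liver genes on mouse chromosome 10 are the pantetheinases, a cluster of retinol dehydrogenases, the apolipoprotein genes Apon and Apof, the arginase gene Arg1, Igf1, and Stat2, which encodes a transcription factor of the interferon response.

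The libraries held between 10209102 and 26900169 counts over the tested genes in (B6.A10 X B6)F1 (median 13674777) and between 6752637 and 25630807 in B6 (median 18806894). Levels are given as CPM, counts scaled to 1 common library size, and a log2 fold change is always (B6.A10 X B6)F1 minus B6 unless stated otherwise. Levels are given as the lowest and highest mouse with the median, for n = 8 and n = 20 mice. A gene is called when the quasi-likelihood test of edgeR gave an adjusted p under 0.05, with the Benjamini-Hochberg adjustment made separately for chromosome 10 and for the other genes. The hepatocyte markers summed to 95246 to 114852 CPM (median 108084) in (B6.A10 X B6)F1 and 100834 to 159715 CPM (median 118427) in B6, and 0 of 10 were called. Their mean log2 level per mouse was above the B6 median in 0 of 8 carriers and below all B6 mice in 3. The hepatocyte markers were thus somewhat lower in the carriers, and the cause was not tested. As a check of the labels, the 27 chromosome 10 genes called in the same direction in both contrasts were combined into a signed mean score per mouse. The score was above 0 in 27 of 27 mice labelled as carriers of the A/J chromosome 10 and in 0 of the 127 other mice, of which 75 had entered neither contrast. Since the carriers were used to choose these genes, their own scores are no independent check.

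On chromosome 10, 71 of 610 genes were called (11.6%), 34 of them higher (5.57%) and 37 lower (6.07%) in (B6.A10 X B6)F1. Elsewhere, 811 of 12679 genes were called (6.4%), 453 higher (3.57%) and 358 lower (2.82%). Without surrogate variables, the model called 1227 genes elsewhere, of which 427 were among the 811. The changes were small. The median absolute log2 fold change was 0.34 among the called genes of chromosome 10 and 0.29 among the others, and 4 of the 71 and 46 of the 811 were beyond 1 on the log2 scale. With a second substitution, 99 genes of chromosome 10 (16.2%) and 758 genes elsewhere (5.98%) were called, but with 10 surrogate variables in place of 5, 63 and 10 genes were. Both groups overlapped for nearly every gene. The ranges of the 2 groups were disjoint for 1 gene of chromosome 10, Vnn3 (0.164% of 610), and for 3 genes elsewhere (0.0237% of 12679), H3f3a and the pseudogenes Gm15372 and Gm15374, which are named for this and were picked after their values were seen.

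**Figure D1:**
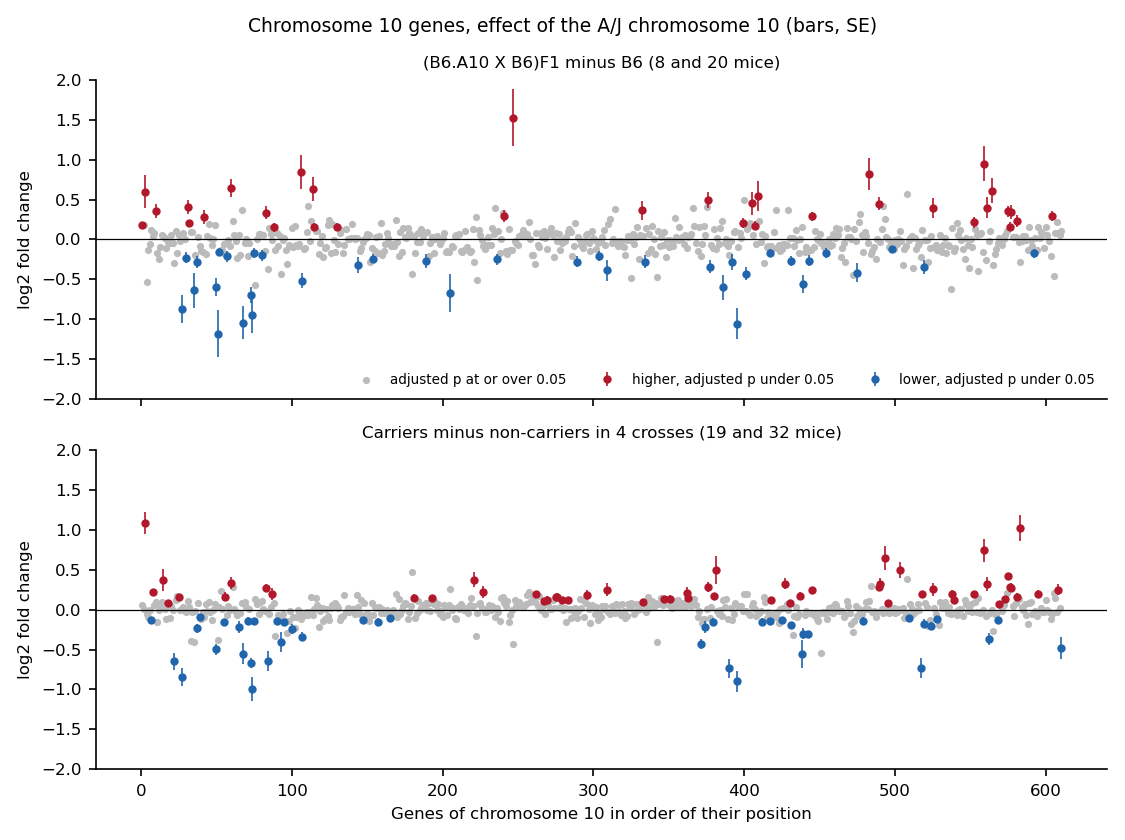
Log2 fold change of the 610 chromosome 10 genes in the order of their position, for (B6.A10 X B6)F1 minus B6 (top) and for the effect with a second substitution (bottom). Red and blue points are genes called higher and lower with their SE, grey points the others. The called genes, 71 above and 99 below, include 27 that moved the same way in both panels.

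The called genes were spread unevenly along chromosome 10. They made up 10 of 30 genes that start between 10 and 20 Mb (33.3%) and 9 of 36 between 20 and 30 Mb (25%). In the stretch from 40 to 80 Mb, the share per 10 Mb was between 3.45% and 6.45%. Towards the end of the chromosome, between 120 and 130 Mb, 12 of 100 genes were called against B6 and 23 of 100 with a second substitution, and 9 genes were called in both. All genes of a stretch are inherited together in these mice, so neighbours that moved together are not independent observations.

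Of the 71 genes of chromosome 10 called against B6, 27 were called in the same direction with a second substitution, which is 38.0% of the 71 and 27.3% of the 99 called there. These 27 comprised 14 that were higher and 13 that were lower. Midn, which encodes a nuclear protein, was the 1 gene called in opposite directions (-0.39 and 0.25), and against B6 it was not called without surrogate variables, with -0.29 (adjusted p = 0.102). The 2 effects differed for 15 of the 71 genes. In the model without surrogate variables, 51 of the 71 genes were still called against B6, as were 22 of the 27. These counts do not cover the call with a second substitution.

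**Figure D2:**
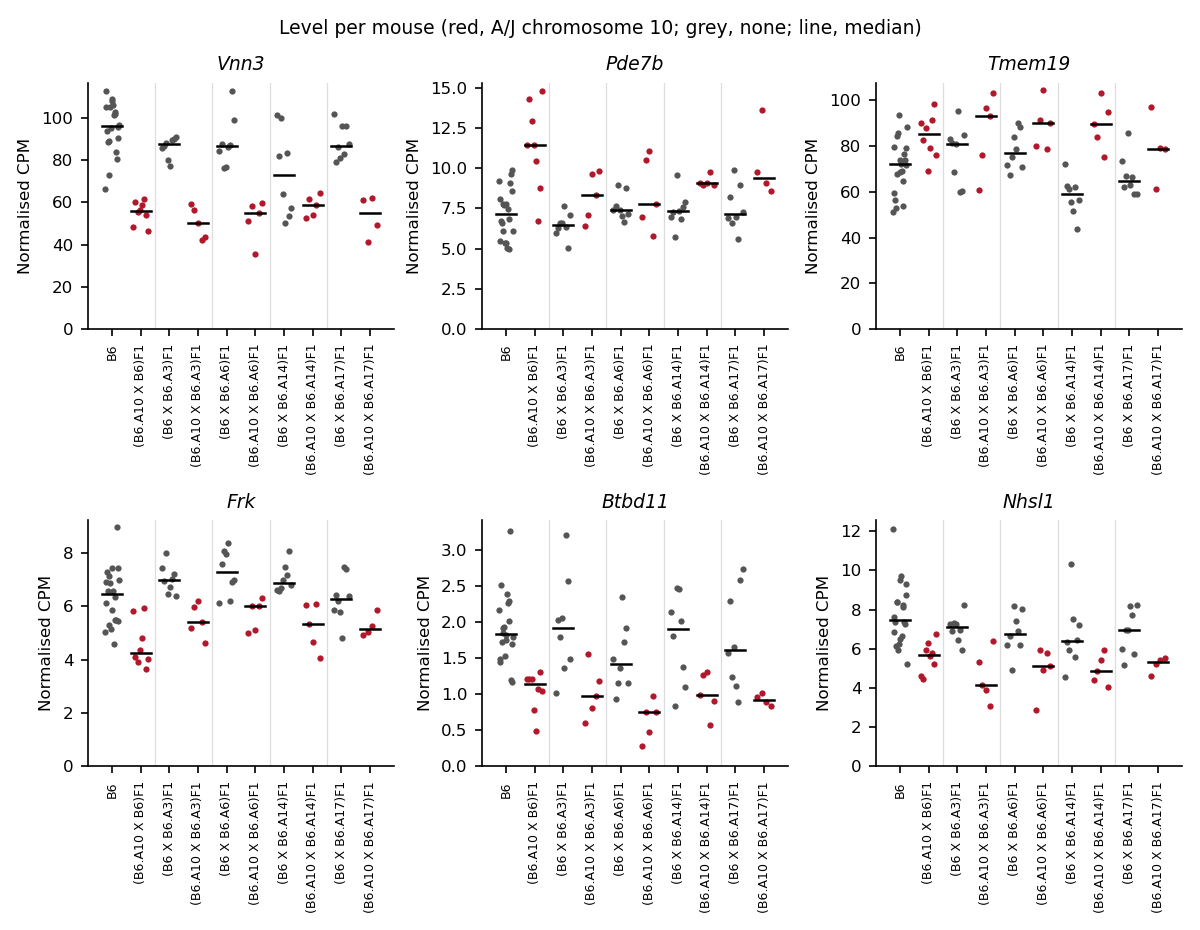
Normalised CPM of each mouse for the 6 genes with the smallest p against B6 among the 27 called in both contrasts. Red points are mice with the A/J chromosome 10 and grey points mice without it, each pair of strains shares its dam strain, and lines are medians. Vnn3 was at 46.5 to 61.7 CPM in (B6.A10 X B6)F1 and at 66.2 to 113 CPM in B6.

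Vnn3, a pantetheinase gene, had the smallest p on the chromosome. Vanins split pantetheine, a product of coenzyme A breakdown, into pantothenate and cysteamine. Positions are those of GRCm38 (mm10). Vnn3 (ENSMUSG00000020010, chromosome 10, 23851462 to 23869843) was at 46.5 to 61.7 CPM (median 55.8) in (B6.A10 X B6)F1 and 66.2 to 113 CPM (median 96.3) in B6. All 8 carriers were below the lowest B6 mouse, and the log2 fold change was -0.70 (SE 0.10, adjusted p = 1.98e-08). With a second substitution it was -0.67 (SE 0.063, adjusted p = 1.1e-16). Among the mice without the A/J chromosome 10, the 8 of (B6 X B6.A14)F1 were at 50.1, 53.4, 57.2, 64.0, 82.0, 83.6, 99.7 and 102 CPM, so that in this cross the non-carriers overlapped with the carriers, which were at 52.8 to 64.6 CPM (median 58.5). In the other crosses, the non-carriers were at 77.1 to 91.0 CPM (median 87.4), 76.0 to 113 CPM (median 86.7) and 79.2 to 102 CPM (median 86.8) for the dams B6.A3, B6.A6 and B6.A17. The carriers of the same 3 crosses were at 42.1 to 59.3 CPM (median 50.5), 35.7 to 59.5 CPM (median 54.7) and 41.4 to 62.2 CPM (median 55.1), all below the non-carriers.

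Vnn1 (ENSMUSG00000037440, chromosome 10, 23894688 to 23905343), the neighbour of Vnn3 and the main hepatic pantetheinase, was at 25.1 to 50.1 CPM (median 36.6) in (B6.A10 X B6)F1 and 31.6 to 111 CPM (median 69.9) in B6. It is a target of the nuclear receptor PPARalpha, which is active in the fasted liver. The groups overlapped, and the log2 fold change was -0.94 (SE 0.23, adjusted p = 0.00178) against B6 and -0.997 (SE 0.15, adjusted p = 4.8e-08) with a second substitution. Of the 9 measured conjugation and pantetheine enzymes of chromosome 10, Vnn1 and Vnn3 were the 2 called, where 11.6% of all chromosome 10 genes were. The list's other members, glutathione S-transferases of the theta class, Mif, Ddt and the pyrophosphatases Enpp1 and Enpp3, did not pass the test. Vnn1 and Vnn3 are similar in sequence, and reads that fit both may have been counted for either.

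At the other end of the chromosome, several neighbouring genes were higher. Retinol dehydrogenases oxidize retinol, and some of them steroids. Rdh16 (chromosome 10, 127801152 to 127846565) was at 119 to 149.7 CPM (median 128) in (B6.A10 X B6)F1 and 62.1 to 146.4 CPM (median 107) in B6, with a log2 fold change of 0.40 (SE 0.13, adjusted p = 0.0312) and of 0.32 (SE 0.086, adjusted p = 0.00341) with a second substitution. Rdh1 (chromosome 10, 127759721 to 127768297), which was detected at a low level, was at 0.887 to 2.26 CPM (median 1.54) in (B6.A10 X B6)F1 and 0 to 1.09 CPM (median 0.652) in B6. Its log2 fold change was 0.95 (SE 0.22, adjusted p = 0.000933) against B6 and 0.74 (SE 0.15, adjusted p = 2.97e-05) with a second substitution. Sdr9c7, a related short-chain dehydrogenase, was the third called member of the 9 measured, where 11.6% of all chromosome 10 genes were called. Sdr9c7 was at 0.61 (SE 0.16), but its levels were alike, 8.26 to 29.2 CPM (median 14.5) in (B6.A10 X B6)F1 and 5.68 to 33.1 CPM (median 14.9) in B6. The call was lost without surrogate variables, with 0.13 (adjusted p = 0.723). The Rdh genes are a tandem family, and their counts are uncertain where copies share sequence.

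Apon and Apof, adjacent genes for apolipoproteins that are carried on plasma lipoproteins, and the adjacent Stat2 were all higher in both contrasts. Apon (chromosome 10, 128254096 to 128255896) was at 299 to 365.6 CPM (median 350.3) in (B6.A10 X B6)F1 and 161 to 364 CPM (median 283.9) in B6. The groups overlapped, although 7 of the 8 carriers were above 337 CPM and 2 of the 20 B6 mice were. The cut at 337 CPM was not set in advance. The log2 fold change of Apon was 0.35 (SE 0.071, adjusted p = 0.000113), and it was 0.42 (SE 0.046, adjusted p = 3.89e-13) with a second substitution. Apof (chromosome 10, 128268671 to 128270153) rose by less, 0.16 (SE 0.054, adjusted p = 0.0349) against B6 and 0.28 (SE 0.035, adjusted p = 6.1e-11) with a second substitution, and against B6 it was not called without surrogate variables, with 0.073 (adjusted p = 0.484). Stat2 (chromosome 10, 128270559 to 128292849) was at 26.9 to 37.0 CPM (median 30.3) in (B6.A10 X B6)F1 and 16.6 to 30.9 CPM (median 23.8) in B6, with a log2 fold change of 0.34 (SE 0.085, adjusted p = 0.00219). Stat2 was again higher with a second substitution, by 0.28 (SE 0.056, adjusted p = 5.35e-05). Coq10a, a neighbour that encodes a coenzyme Q binding protein, was at 0.23 and 0.15 in the 2 contrasts, and its call against B6 was lost without surrogate variables too, with 0.093 (adjusted p = 0.486).

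Some genes of energy and one-carbon metabolism on chromosome 10 were higher in both contrasts. Ndufa12 (chromosome 10, 94198720 to 94221443), a subunit of complex I of the respiratory chain, was at 32.3 to 39.7 CPM (median 34.4) in (B6.A10 X B6)F1 and 22.5 to 34.4 CPM (median 30.2) in B6. Its log2 fold change was 0.29 (SE 0.057, adjusted p = 0.000105) against B6 and 0.25 (SE 0.037, adjusted p = 4.8e-08) with a second substitution. It was the 1 called gene of 12 measured chromosome 10 genes of carbohydrate and mitochondrial energy metabolism, where 11.6% of all chromosome 10 genes were called. Shmt2, the mitochondrial serine hydroxymethyltransferase, was higher by 0.21 and 0.19 in the 2 contrasts, but against B6 it was not called without surrogate variables, with 0.12 (adjusted p = 0.2). Mthfd1l, which makes formate from folate-bound carbon in mitochondria, had the largest rise with a second substitution of the genes called in both, at 1.09, and was at 0.60 against B6. The levels of Mthfd1l were 3.63 to 13 CPM (median 4.57) in (B6.A10 X B6)F1 and 1.79 to 7.16 CPM (median 3.56) in B6, with broad overlap.

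Arg1, the last enzyme of the urea cycle, was called lower at -0.20 (SE 0.069, adjusted p = 0.0436), with levels of 1723 to 2519 CPM (median 2243) in (B6.A10 X B6)F1 and 1673 to 3250 CPM (median 2346) in B6. The effects on Arg1 differed between the contrasts (adjusted p = 0.0219), and against B6 the call was lost without surrogate variables. Among the 11 measured chromosome 10 enzymes of amino acid and nitrogen metabolism, Shmt2 was the 1 called higher and Arg1 the 1 called lower. Of all chromosome 10 genes, 5.57% were called higher and 6.07% lower. Igf1, the gene for the circulating growth factor, was at 658 to 837 CPM (median 741.7) in (B6.A10 X B6)F1 and 410.7 to 992 CPM (median 712) in B6, with a log2 fold change of 0.23 that was not called (adjusted p = 0.0679).

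Regulators and signalling genes of the chromosome moved in both directions. Pde7b (chromosome 10, 20398004 to 20725078), which encodes a phosphodiesterase that hydrolyses cyclic AMP, was at 6.71 to 14.8 CPM (median 11.4) in (B6.A10 X B6)F1 and 4.95 to 9.87 CPM (median 7.15) in B6. Its log2 fold change was 0.64 (SE 0.11, adjusted p = 1.68e-05), and 0.34 (SE 0.073, adjusted p = 0.000191) with a second substitution. Avpr1a, the vasopressin receptor of hepatocytes, was higher by 0.39 and 0.25, and against B6 its call was lost without surrogate variables, with 0.21 (adjusted p = 0.286). Frk (chromosome 10, 34483399 to 34611278), a tyrosine kinase related to Src, was lower, at 3.66 to 5.94 CPM (median 4.23) in (B6.A10 X B6)F1 and 4.59 to 8.96 CPM (median 6.46) in B6. The log2 fold change of Frk was -0.52 (SE 0.10, adjusted p = 3.24e-05) against B6 and -0.34 (SE 0.06, adjusted p = 3.58e-06) with a second substitution. Of the 32 measured nuclear receptor, transcription factor and signalling genes listed for chromosome 10, 2 were called, where 11.6% of its genes were. They were Stat2 and the imprinted zinc finger gene Plagl1, which was lower at -0.64. Plagl1 was not called without surrogate variables, with -0.52 (adjusted p = 0.0922), and lost its call in 11 of the 28 fits that left out 1 mouse, 6 of which left out (B6.A10 X B6)F1 mouse 2, 3, 4, 5, 6 or 7 and 5 of which left out B6 mouse 1, 5, 14, 16 or 18.

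Other genes called in both contrasts were Nhsl1 (chromosome 10, 18318985 to 18533892), a regulator of the actin cytoskeleton, at -0.59 (SE 0.11, adjusted p = 4.62e-05) against B6 and -0.50 (SE 0.073, adjusted p = 2.28e-08) with a second substitution. Btbd11 was at 0.493 to 1.31 CPM (median 1.14) in (B6.A10 X B6)F1 and 1.18 to 3.27 CPM (median 1.84) in B6, with log2 fold changes of -1.06 and -0.90. Raet1d, which encodes a ligand of the natural killer cell receptor NKG2D, was at -1.04 and -0.55, and Snrpf, a core protein of the spliceosome, at -0.56 and -0.30. Tmem19, which encodes a membrane protein, was higher by 0.44 and 0.29. Adgb, the gene for androglobin, was lower in both contrasts, at -0.88 and -0.85. The remaining genes of the 27 were Phactr2, Stx7, Arl1, Nedd1, Rassf3, Smlr1 and 1190007I07Rik, and none of their log2 fold changes against B6 reached 0.5 in size.

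Other chromosome 10 genes were called against B6 and not with a second substitution, and for some of them the effects differed. Timp3, an inhibitor of metalloproteinases, was at 24.01 to 29.3 CPM (median 27.3) in (B6.A10 X B6)F1 and 24.3 to 42.2 CPM (median 33.2) in B6. Its log2 fold change was -0.43 (SE 0.082, adjusted p = 4.62e-05) against B6 and -0.014 with a second substitution, and the effects differed (adjusted p = 0.00633). Derl3, a factor of endoplasmic reticulum (ER) associated protein degradation, had the largest rise of the chromosome, 1.53 (SE 0.36, adjusted p = 0.0012), but a wide spread, 0.635 to 7.24 CPM (median 1.59) in (B6.A10 X B6)F1 and 0 to 3.26 CPM (median 1.07) in B6. It was at -0.43 with a second substitution, which differed from the value against B6 (adjusted p = 0.00633). Syne1, which encodes the nuclear envelope protein nesprin-1, and Epm2a, the glycogen phosphatase laforin, were higher against B6 by 0.36 and 0.40, and Izumo4 by 0.37, while Pawr, an inducer of apoptosis, was lower, at -0.42. With a second substitution, Syne1, Epm2a, Izumo4 and Pawr were at 0.10, 0.11, 0.066 and -0.077, and the difference between the contrasts did not pass the test for any of the 4 (adjusted p = 0.149, 0.102, 0.216 and 0.152).

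The 3 noncoding genes of chromosome 10 with the largest change were Gm25117, E130307A14Rik and Igf1os. Gm25117, annotated as a small nucleolar RNA, was at 8.64 to 20.5 CPM (median 15.2) in (B6.A10 X B6)F1 and 4.85 to 26.6 CPM (median 9.08) in B6, and its call was lost without surrogate variables. E130307A14Rik was at 1.28 to 2.56 CPM (median 2.17) in (B6.A10 X B6)F1 and 0.429 to 1.90 CPM (median 1.21) in B6. Igf1os, antisense to Igf1, was at 1.37 to 2.58 CPM (median 1.78) in (B6.A10 X B6)F1 and 0.777 to 1.84 CPM (median 1.25) in B6, with a log2 fold change of 0.54 (SE 0.19, adjusted p = 0.0436), and lost its call in 11 of the 28 fits that left out 1 mouse. It is not given in the sources used here whether counting used the strand, so reads of the antisense RNAs and of the genes opposite them cannot be told apart.

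Elsewhere in the genome, the comparison with B6 and the effect with a second substitution called largely separate genes. Of the 811 genes called against B6, 42 were called in the same direction with a second substitution (5.18% of the 811 and 5.54% of the 758 called there) and 10 in the opposite direction. For comparison, 5.98% of all genes elsewhere were called with a second substitution in either direction. The like count among the 811 is the 52 called in both contrasts, of which 42 moved the same way. The sign of the 2 effects was the same for 495 of the 811 genes (61.0%), against 53 of the 71 on chromosome 10 (74.6%). The effects differed for 263 of the 811 (32.4%) and for 15 of the 71 (21.1%), where 3.28% and 3.77% of all genes elsewhere and on chromosome 10 had effects that differed. The 811 and the 71 were chosen by the effect against B6, which is part of this difference, so the choice itself raises these shares. The 42 genes comprised 15 higher and 27 lower. Without surrogate variables, 427 of the 811 genes and 30 of the 42 were still called against B6, which does not cover the call with a second substitution. With 10 surrogate variables in place of 5, that call was made for 10 genes elsewhere, against 758. Most of the 42 thus cannot have kept it.

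**Figure D3:**
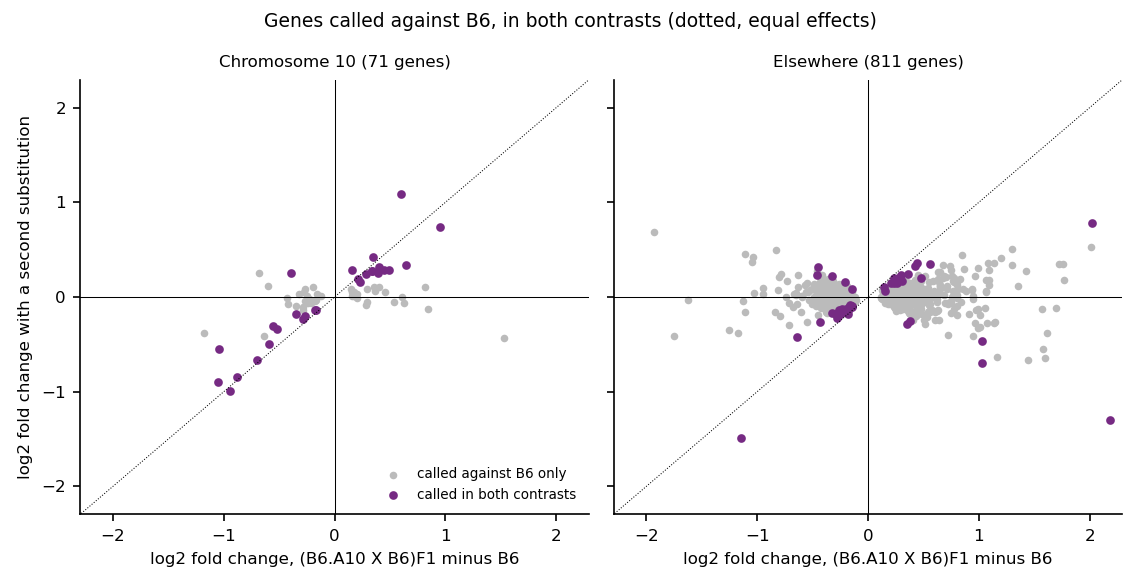
Log2 fold change with a second substitution against that of (B6.A10 X B6)F1 minus B6, for the genes called against B6 on chromosome 10 (left, 71 genes) and elsewhere (right, 811 genes). Purple points were called in both contrasts, 28 on the left and 52 on the right, and the dotted line marks equal effects.

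The genes of the 42 described next were picked after their values were seen. The largest fall of the 42 was that of Gm47283, annotated to chromosome Y. It was at 2.39 to 3.55 CPM (median 2.61) in (B6.A10 X B6)F1 and 1.61 to 10.1 CPM (median 4.56) in B6. Its log2 fold changes were -1.14 (adjusted p = 0.00234) and -1.49 (adjusted p = 1.13e-08) in the 2 contrasts. The Y chromosome came from the sire, B6.A10 for carriers and B6 for the others, and a cause was not tested. Among the 27 that were lower, Tpt1, the translationally controlled tumor protein, was at 265 to 325 CPM (median 292) in (B6.A10 X B6)F1 and 286 to 510.3 CPM (median 357) in B6, with log2 fold changes of -0.28 and -0.22 in the 2 contrasts. The translation initiation factors Eif2s1 and Eif3e were at -0.17 and -0.17 against B6 and at -0.13 and -0.11 with a second substitution. Against B6, Eif3e was not called without surrogate variables. H3f3a, a gene for histone H3.3, was the 1 gene elsewhere called in both contrasts whose groups did not overlap, at 75.4 to 92.0 CPM (median 85.6) in (B6.A10 X B6)F1 and 92.2 to 119.8 CPM (median 98.6) in B6. Its log2 fold change was small, -0.14 (SE 0.046, adjusted p = 0.038). Slc25a47, a mitochondrial carrier of the liver, was at -0.43 and -0.27.

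Among the 15 that were higher, Zkscan3, a zinc finger transcription factor on chromosome 13, was at 73.5 to 102 CPM (median 89.9) in (B6.A10 X B6)F1 and 38.8 to 77.3 CPM (median 59.2) in B6, with nearly disjoint ranges. Its effect with a second substitution was 0.36 (SE 0.045, adjusted p = 4.33e-09). The study reports that other A/J chromosomes, substituted singly, raised Zkscan3 above B6 too. A rise of Zkscan3 is thus not particular to the chromosome substituted here. Serpinf2, the plasma inhibitor of plasmin, was higher by 0.23 and 0.20, and Mug2, a plasma protease inhibitor of the murinoglobulin family, by 0.43 and 0.33. Sort1, which encodes a sorting receptor that takes part in lipoprotein secretion, was higher by 0.36 and 0.24. Serpinf2 and Sort1 were not called against B6 without surrogate variables. Fbxo47 had the largest log2 fold change of the 42, 2.02, but its medians were close, 0.635 to 11.2 CPM (median 0.830) in (B6.A10 X B6)F1 and 0.427 to 1.44 CPM (median 0.698) in B6.

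Many interferon-stimulated genes were called higher in the comparison with B6. These genes are switched on when interferon binds its receptors and transcription factors that include Stat2 and Irf9 form a complex that binds the interferon-stimulated response element. Of 41 measured genes, 16 were called higher and 0 lower, where 3.66% of all genes were called higher and 2.97% lower. The log2 fold change was above 0 for 41 of 41, with a median of 0.31 against 0.00044 for all genes. Without surrogate variables, 15 genes of the list were called higher and 0 lower, with the same median of 0.31, and 12 of the 16 were among them. One of the 41, Stat2, lies on chromosome 10.

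The called genes covered sensors, effectors and regulators. Irf7, the regulator that amplifies interferon production, was at 16.5 to 23.7 CPM (median 19.3) in (B6.A10 X B6)F1 and 9.98 to 23.3 CPM (median 15.7) in B6, and its log2 fold change was 0.54 (SE 0.10, adjusted p = 0.000227). Oasl1, a member of the oligoadenylate synthetase family, was at 6.11 to 11.6 CPM (median 6.91) in (B6.A10 X B6)F1 and 2.43 to 9.37 CPM (median 4.80) in B6, with 0.75 (SE 0.18, adjusted p = 0.00627). Rnf213, a large ubiquitin ligase with antiviral and antibacterial roles, was at 112 to 168 CPM (median 136.4) in (B6.A10 X B6)F1 and 71.2 to 138.1 CPM (median 101) in B6, with 0.37 (SE 0.087, adjusted p = 0.00456). Ifih1, a sensor of double-stranded RNA, was higher by 0.28, Ifit1, which binds viral RNA, by 0.64, and Mx1, an antiviral dynamin-like GTPase, by 0.58. The immunity-related GTPases Irgm1, Irgm2 and Igtp were higher by 0.32, 0.48 and 0.43, and the guanylate-binding protein gene Gbp6 by 0.72. Irf9, the DNA-binding partner of Stat2, was called higher at 0.31 (SE 0.094, adjusted p = 0.0278). For the calls of Irf7, Irgm1, Irgm2 and Igtp, the adjusted p without surrogate variables was 0.0797, 0.195, 0.169 and 0.407.

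The list gave no such rise with a second substitution. There, 1 of the 41 genes was called higher, which was Stat2, and 4 were called lower, Ifit2, Gbp7, Iigp1 and Ifi44, at -0.38, -0.30, -0.34 and -0.28, where 3.5% of all genes were called higher and 2.95% lower. The median was -0.14 against 0.0043 for all genes. The effects in the 2 contrasts differed for 18 of the 41 genes, against 3.3% of all genes. For Stat2 itself, the difference did not pass the test (adjusted p = 0.808), whereas for Irf9 the effects were 0.31 and -0.10 and differed (adjusted p = 0.0251).

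**Figure D4:**
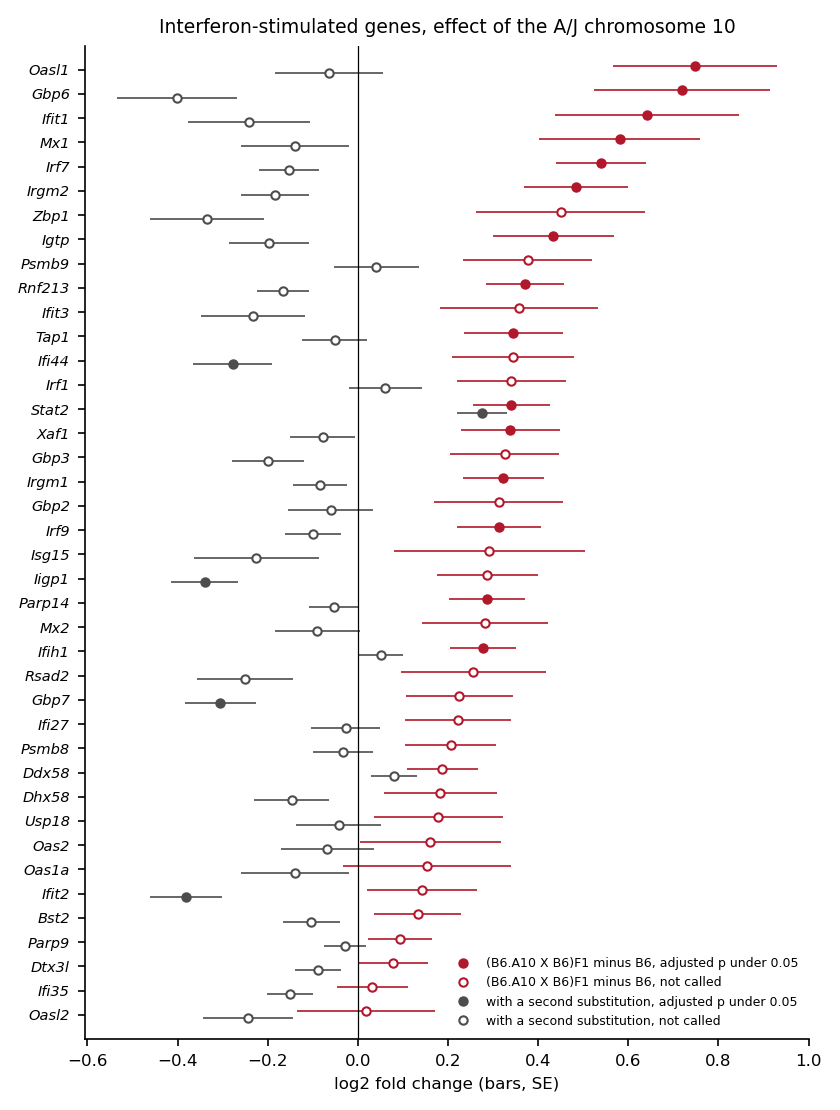
Log2 fold change and SE of 40 of the 41 measured interferon-stimulated genes for (B6.A10 X B6)F1 minus B6 (red) and for the effect with a second substitution (grey), filled where called. All 40 red points are above 0, and Stat2 is the 1 gene called higher in both.

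Per mouse, the mean of the 41 genes' log2 ratios to the B6 median (with 0.5 CPM added to each level) was 0.07 to 0.42 (median 0.26) in (B6.A10 X B6)F1 and -0.50 to 0.41 (median 0.02) in B6. It was above the B6 median in 8 of 8 carriers and above all B6 mice in 2. A shift of all carriers to 1 side was not particular to this list. For antigen presentation, 8 of 8 were above the B6 median, and for fatty acid oxidation, apolipoproteins and the respiratory chain, 0 of 8 were. In the double CSSs with chromosomes 3, 6, 14 and 17, the medians were -0.16, 0.18, -0.01 and -0.06, and in the single CSSs of these chromosomes they were 0.21, 0.26, 0.04 and 0.18. Mice without the A/J chromosome 10 were thus not uniformly low, since the single CSSs of chromosomes 3, 6 and 17 had medians between those of B6 and of (B6.A10 X B6)F1 or close to the latter. With (B6.A10 X B6)F1 mouse 1 left out, 8 of the 41 genes were called higher instead of 16. Leaving out any other of the 28 mice gave between 11 and 20, and the median stayed between 0.27 and 0.35.

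No marker of macrophages or lymphocytes was called higher. The 13 macrophage markers summed to 473 to 665 CPM in (B6.A10 X B6)F1 and 447.7 to 726 CPM in B6, 0 of them were called higher and 1 was called lower, Marco, a scavenger receptor of macrophages, at -0.73. Marco was not called without surrogate variables, with -0.62 (adjusted p = 0.0817), with 10 of them, or without (B6.A10 X B6)F1 mouse 1, 3, 4, 6 or 7 or B6 mouse 14. The 8 measured lymphocyte markers summed to 31.5 to 42.4 CPM and 28.1 to 48.6 CPM, with 0 called. The same was true of the markers of cholangiocytes (6), neutrophils (2), erythroid cells (6) and exocrine pancreas (1). Of 12 measured sinusoidal endothelial markers, 1 was called higher, the scavenger receptor gene Stab2 of chromosome 10, at 0.17. Of 12 measured stellate cell and fibroblast markers, 1 was called higher, Reln, at 0.26. In each of these lists, 0 markers were called lower, and 6 were above 0 and 6 below. The medians of the lists were -0.0062 and -0.035. In bulk liver, fewer cells of a type and less RNA per cell cannot be told apart.

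The sequences before the starts of 3 called interferon-stimulated genes are shown because they carry the element that the interferon-stimulated complex binds. The element's core was searched on both strands as 2 copies of GAAA with any 2 bases between them, from 250 bases before to 50 bases after the transcription start in the RefSeq promoter table of GRCm38.p6. It was present for 15 of the 29 interferon-stimulated genes with an entry (51.7%), for 6 of the 12 called ones with an entry, and for 383 of 9773 tested genes with an entry (3.92%). The 250 bases before the start are given 5′ to 3′ in the direction of transcription, with the matches to the core, or to its reverse complement, in capitals. They are those of Stat2 (chr10:128270248-128270497, plus strand), Ifit1 (chr19:34640639-34640888, plus strand) and Irgm2 (chr11:58214727-58214976, plus strand), and are reference sequence, not that of A/J.
Stat2: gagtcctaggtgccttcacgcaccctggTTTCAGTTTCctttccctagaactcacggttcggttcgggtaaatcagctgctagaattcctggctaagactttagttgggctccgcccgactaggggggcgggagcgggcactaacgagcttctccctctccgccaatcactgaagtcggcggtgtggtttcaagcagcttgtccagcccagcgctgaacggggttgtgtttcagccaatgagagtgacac
Ifit1: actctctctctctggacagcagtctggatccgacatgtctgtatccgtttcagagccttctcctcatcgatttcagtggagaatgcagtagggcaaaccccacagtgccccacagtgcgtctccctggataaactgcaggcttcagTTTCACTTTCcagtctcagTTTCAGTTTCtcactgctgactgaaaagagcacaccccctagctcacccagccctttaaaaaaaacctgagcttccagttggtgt
Irgm2: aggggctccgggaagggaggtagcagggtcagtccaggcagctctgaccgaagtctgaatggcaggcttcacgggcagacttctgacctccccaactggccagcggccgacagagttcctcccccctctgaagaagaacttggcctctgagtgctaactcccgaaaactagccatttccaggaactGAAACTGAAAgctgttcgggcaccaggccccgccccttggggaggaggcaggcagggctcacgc
A match describes these letters only and is no evidence that a factor was bound there in these livers.

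Some genes of antigen presentation were higher too. Of 24 measured genes of the major histocompatibility complex (MHC) and its peptide loading, 4 were called higher and 0 lower, where 3.66% of all genes were called higher, 22 were above 0, and the median was 0.20. The count was 1 without (B6.A10 X B6)F1 mouse 1 or 3, and 2 without mouse 5, 7 or 8. H2-T23, a nonclassical class I gene, was at 109 to 128 CPM (median 112) in (B6.A10 X B6)F1 and 82.6 to 114 CPM (median 99.7) in B6, with a log2 fold change of 0.28 (SE 0.051, adjusted p = 0.000156). H2-Aa, a class II chain, was at 14.8 to 35.8 CPM (median 23.2) in (B6.A10 X B6)F1 and 9.69 to 31.6 CPM (median 15.1) in B6, with 0.52 (SE 0.17, adjusted p = 0.0491), and lost its call in 21 of the 28 fits that left out 1 mouse and with 10 surrogate variables. In 7 of these 21 fits, the mouse left out was one of the 8 (B6.A10 X B6)F1 mice, of which the call held without mouse 6. The peptide transporter gene Tap1, which the interferon list also holds, was higher by 0.35. H2-T22 was called higher by 0.23, and without surrogate variables it was not called (adjusted p = 0.152). In the crosses with a second substitution, 1 gene of the list was called higher and the median was -0.00041. H2 genes are a family of similar sequences, so counts can be split between them.

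Genes of fat oxidation and storage gave more falls than rises. Of 34 measured genes of fatty acid oxidation and ketogenesis, 0 were called higher and 4 lower, where 3.66% of all genes were called higher and 2.97% lower, and 31 were below 0, with a median of -0.17. Vnn1, described above, is 1 of the 4. Acadl, the long-chain acyl-CoA dehydrogenase, was at 124.5 to 175 CPM (median 149) in (B6.A10 X B6)F1 and 140.6 to 223 CPM (median 192) in B6, with a log2 fold change of -0.30 (SE 0.085, adjusted p = 0.0211). Plin5, a lipid droplet protein of oxidative tissues, was at 56.1 to 84.9 CPM (median 68.6) in (B6.A10 X B6)F1 and 53.1 to 162.4 CPM (median 83.7) in B6, with -0.42 (SE 0.13, adjusted p = 0.0285). Cyp4a31, an omega-hydroxylase of fatty acids and member of a gene family, was at -0.84. The calls of Plin5 and Cyp4a31 were lost without surrogate variables (adjusted p = 0.0635 and 0.0596). The list's median was -0.17 in that model too, and 0.06 with a second substitution, where 2 genes were called higher and 1 lower. Without (B6.A10 X B6)F1 mouse 6 or 7, 1 gene of this list was called in place of 4.

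Of 20 measured genes of fatty acid and triglyceride synthesis and breakdown, 1 was called higher and 2 lower, where 3.66% and 2.97% of all genes were. Pnpla2, the lipase that starts triglyceride breakdown, was at -0.44 (SE 0.11, adjusted p = 0.00913), and Lpin1, the phosphatidate phosphatase lipin-1, which is induced by fasting, was at 82.5 to 259 CPM (median 131.2) in (B6.A10 X B6)F1 and 64.6 to 547 CPM (median 306) in B6, with -1.04 (SE 0.32, adjusted p = 0.0351). Acss2, which activates acetate in the cytosol, was the 1 called higher, at 0.27. None of these 3 was called without surrogate variables. The list had 1 gene lower without (B6.A10 X B6)F1 mouse 1, 3, 4, 6, 7 or 8 or B6 mouse 15 and 4 lower without B6 mouse 7 or 16. It had 0 higher without (B6.A10 X B6)F1 mouse 6, 2 without (B6.A10 X B6)F1 mouse 5 or B6 mouse 1, 7, 10 or 17, and 3 without B6 mouse 4. Cidec, which promotes the growth of lipid droplets, was at 1.40 to 12.1 CPM (median 4.31) in (B6.A10 X B6)F1 and 0.512 to 33.4 CPM (median 7.76) in B6, with -1.62 (SE 0.42, adjusted p = 0.0105), and without surrogate variables its value was -1.27 (adjusted p = 0.073). Lpl, lipoprotein lipase, was lower, at -0.60, but was not called without surrogate variables, with -0.36 (adjusted p = 0.106), or without B6 mouse 1. Apoe, an apolipoprotein of remnant particles, was called higher by 0.14, and without surrogate variables it was at -0.012 (adjusted p = 0.928). Of 28 apolipoproteins and genes of lipoprotein assembly, 3 were called higher (Apon, Apof and Apoe) and 2 lower (Cidec and Lpl), with 1 higher when (B6.A10 X B6)F1 mouse 6 was left out.

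Genes of gluconeogenesis and glycolysis gave 1 and 2 calls, all lower, where 3.66% of all genes were called higher and 2.97% lower. Of 18 measured genes of gluconeogenesis, 0 were called higher and 1 lower, Creb1, a transcription factor that responds to glucagon, at -0.23 (SE 0.053, adjusted p = 0.00424). The median of the list was -0.06. Of 16 measured genes of glycolysis, 0 were called higher and 2 lower, with 0 lower without (B6.A10 X B6)F1 mouse 3 and 1 lower without (B6.A10 X B6)F1 mouse 1, 6 or 7 or B6 mouse 7, 10 or 14. Ldha, lactate dehydrogenase, was at 569 to 730.5 CPM (median 663.1) in (B6.A10 X B6)F1 and 521 to 1344 CPM (median 799) in B6, with -0.32 (SE 0.10, adjusted p = 0.0344). The effects on Creb1 and Ldha differed between the contrasts (adjusted p = 0.0174 and 0.0242). Without surrogate variables, Ldha was still called and Creb1 was not. Among 32 genes that respond to insulin or glucocorticoid, 1 was called higher and 2 lower, of which Fkbp5, a glucocorticoid-induced co-chaperone, was at -0.63 (SE 0.21, adjusted p = 0.0432) and lost its call in 11 of the 28 fits that left out 1 mouse.

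Genes of the growth hormone axis were called higher with 5 surrogate variables in the model and not without them. Of 39 measured genes, 7 were called higher and 1 lower, where 3.66% and 2.97% of all genes were, with a median of 0.23. Without surrogate variables, 0 of the 39 were called and the median was 0.05. Leaving out (B6.A10 X B6)F1 mouse 1 or mouse 6 left 4 and 2 called higher. Ghr, the growth hormone receptor, was at 296 to 398 CPM (median 346) in (B6.A10 X B6)F1 and 201.95 to 449 CPM (median 313) in B6, with 0.32 (SE 0.076, adjusted p = 0.00528) and, without surrogate variables, 0.075 (adjusted p = 0.676). Igfals, the subunit that stabilizes circulating IGF complexes, was at 33.7 to 51.2 CPM (median 43.8) in (B6.A10 X B6)F1 and 16.2 to 77.6 CPM (median 40.2) in B6, with 0.51 (SE 0.14, adjusted p = 0.0123) and, without surrogate variables, 0.047 (adjusted p = 0.903). Mup17, a major urinary protein gene that growth hormone pulses induce, had the largest rise of the called protein-coding genes elsewhere with a mean log2 CPM of at least 2, 2.18 (SE 0.62, adjusted p = 0.0188). Its levels were 4.94 to 49.2 CPM (median 12.02) in (B6.A10 X B6)F1 and 1.19 to 99.9 CPM (median 4.82) in B6, the highest mouse was a B6 mouse, and the value was 0.61 (adjusted p = 0.58) without surrogate variables. With a second substitution it was lower, -1.30 (SE 0.42, adjusted p = 0.0473).

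A further 7 major urinary protein genes were among the 10 largest rises of protein-coding genes elsewhere with a mean log2 CPM of at least 2, and they are near-identical copies between which counts are uncertain. Of these, Mup9, Mup11, Mup18 and Mup16 were at 1.61, 1.60, 1.58 and 1.44, and Mup12, Mup8 and Mup6 at 1.16, 1.07 and 1.01. None of them was called without surrogate variables. Selenbp2, a selenium-binding protein gene with a male-biased level in liver, was at 23.8 to 319 CPM (median 139.7) in (B6.A10 X B6)F1 and 7.13 to 228 CPM (median 72.5) in B6, and its log2 fold change was 1.57 (SE 0.36, adjusted p = 0.00399), or 0.86 (adjusted p = 0.104) without surrogate variables. Tmprss11a, a transmembrane serine protease gene, completed the 10 largest rises. It was at 12.2 to 76.0 CPM (median 36.7) in (B6.A10 X B6)F1 and 4.95 to 55.3 CPM (median 13.6) in B6, and its log2 fold change was 1.30 (SE 0.31, adjusted p = 0.00489). It was also called without surrogate variables, with 1.19 (adjusted p = 0.0384).

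Of the 10 largest falls elsewhere, those of Nrg4, Tmc7, 2010003K11Rik and 1810055G02Rik were called both with and without surrogate variables. Nrg4, a secreted ligand of the ErbB4 receptor, was at 7.72 to 24.7 CPM (median 9.59) in (B6.A10 X B6)F1 and 7.27 to 36.8 CPM (median 17.6) in B6, with a log2 fold change of -1.03 (SE 0.21, adjusted p = 0.00073). Its effect with a second substitution was 0.04, and the difference passed the test (adjusted p = 0.00614). Tmc7, which encodes a membrane protein, was at 3.19 to 10.7 CPM (median 4.16) in (B6.A10 X B6)F1 and 3.40 to 15.9 CPM (median 8.60) in B6. The genes 2010003K11Rik and 1810055G02Rik were at 4.601 to 10.8 CPM (median 5.94) in (B6.A10 X B6)F1 and 4.67 to 29.2 CPM (median 10.5) in B6 and at 14.7 to 30.1 CPM (median 24.7) in (B6.A10 X B6)F1 and 19.6 to 55.1 CPM (median 35.3) in B6, respectively. Lepr, the leptin receptor, was at 12.3 to 106 CPM (median 33.6) in (B6.A10 X B6)F1 and 10.1 to 212 CPM (median 40.1) in B6, with -1.11 (SE 0.35, adjusted p = 0.037). It was not called without surrogate variables, where it was at -0.38 (adjusted p = 0.55).

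Some genes of bile acid metabolism were called. Of 28 measured genes of bile acid synthesis and transport, 3 were called higher and 1 lower, where 3.66% and 2.97% of all genes were. The median of the list was 0.09, and 1 gene was called higher without (B6.A10 X B6)F1 mouse 6. Hsd3b7, which modifies the sterol ring early in bile acid synthesis, was at 241.2 to 380.3 CPM (median 322) in (B6.A10 X B6)F1 and 172 to 312 CPM (median 259) in B6, with 0.46 (SE 0.071, adjusted p = 6.11e-06). Its effect with a second substitution was 0.10 and differed (adjusted p = 0.00786). Cyp39a1, a hydroxylase of oxysterols, was lower, at 48.4 to 69.98 CPM (median 54.5) in (B6.A10 X B6)F1 and 49.7 to 135 CPM (median 84.4) in B6, with -0.65 (SE 0.19, adjusted p = 0.0276). Slc27a5, which activates bile acids for conjugation, and Cyp27a1, the sterol 27-hydroxylase, were higher by 0.24 and 0.24, and neither was called without surrogate variables.

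**Figure D5:**
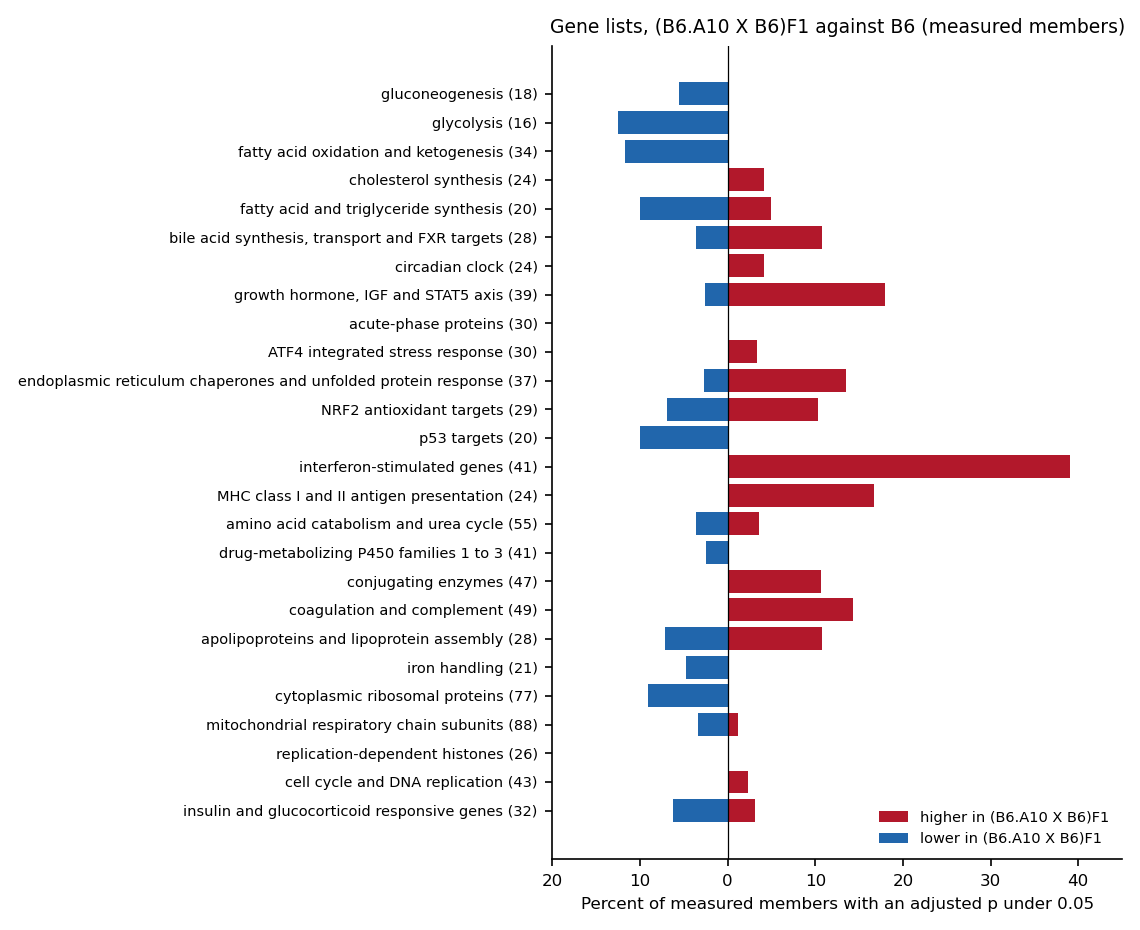
Percent of the measured members of each gene list (number in brackets) that were called higher (red, to the right) or lower (blue, to the left) in (B6.A10 X B6)F1 against B6. The interferon-stimulated genes reach 39.0% higher, where 3.66% of all genes were called higher and 2.97% lower.

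A few ribosomal protein genes were called lower, by small amounts. Of 77 measured genes of the cytoplasmic ribosome, 0 were called higher and 7 lower, where 3.66% and 2.97% of all genes were. In the list, 4 genes were above 0, and the median was -0.12. With a second substitution, 0 were called higher and 10 lower, where 3.5% and 2.95% of all genes were, with a median of -0.07. With 10 surrogate variables in place of 5, that contrast called 10 genes off chromosome 10 in all, against 758. Rpl23a was at 43.97 to 52.1 CPM (median 47.0) in (B6.A10 X B6)F1 and 47.1 to 73.7 CPM (median 56.5) in B6, with log2 fold changes of -0.22 (SE 0.067, adjusted p = 0.0316) against B6 and -0.16 (SE 0.043, adjusted p = 0.0165) with a second substitution. Rps24 was at -0.21 and -0.15, and Rpl28 and Rps15a were at -0.19 and -0.20 against B6. Of the 7, 6 were also called without surrogate variables. Without (B6.A10 X B6)F1 mouse 6, without mouse 7 or without B6 mouse 1, however, 0 of the 77 genes were called, and 3 were without (B6.A10 X B6)F1 mouse 1 or 8 and 4 without B6 mouse 11.

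Of 88 measured subunits of the respiratory chain, 1 was called higher, Ndufa12 of chromosome 10, and 3 lower, where 3.66% and 2.97% of all genes were. There were 6 lower without (B6.A10 X B6)F1 mouse 4 and 5 without B6 mouse 1 or 10. Cox5b, a subunit of cytochrome c oxidase, was at 59.1 to 76.3 CPM (median 63.5) in (B6.A10 X B6)F1 and 65.0 to 93.6 CPM (median 82.2) in B6, with -0.24 (SE 0.051, adjusted p = 0.00182) and, with a second substitution, -0.13 (SE 0.033, adjusted p = 0.00764). The mitochondrially encoded mt-Nd6 was at 58.9 to 92.9 CPM (median 78.4) in (B6.A10 X B6)F1 and 84.3 to 199.5 CPM (median 121) in B6, with -0.64 (SE 0.16, adjusted p = 0.00838), and mt-Cytb was lower, at -0.26. Against B6, mt-Cytb lost its call in 14 of the 28 fits that left out 1 mouse. Both were also called lower with a second substitution, at -0.42 and -0.19. The mitochondrial genome came from the dam in every group. The effect with a second substitution was called higher for 5 of the 88 and lower for 22, where it was for 3.5% and 2.95% of all genes. With 10 surrogate variables in place of 5, it was called for 10 genes off chromosome 10 in all, against 758. Most of these calls thus cannot have held there.

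Secreted proteins and stress genes were mixed. Their counts stand beside 3.66% of all genes called higher and 2.97% called lower. Of 49 measured coagulation and complement genes, 7 were called higher and 0 lower, with a median of 0.10, among them F11, coagulation factor XI, at 0.36 (SE 0.094, adjusted p = 0.0124) and the complement gene C2 at 0.31 (SE 0.084, adjusted p = 0.0149). The others named by the rule were C1s1 and Proz, at 0.27 and 0.20. Without surrogate variables, 0 of the 49 were called and the median was 0.00024, and with them, 1 was called without (B6.A10 X B6)F1 mouse 6, 2 without mouse 7 and 4 without mouse 3. Of 37 genes of ER chaperones and the unfolded protein response, 5 were called higher and 1 lower, and leaving out 1 mouse left between 2 and 5 called higher, with 2 without (B6.A10 X B6)F1 mouse 1, 3, 6 or 7 and without B6 mouse 3, 5, 6 or 18. Besides Derl3, Pdia4 and Hyou1, chaperones of the ER, were higher by 0.39 and 0.41, and Dnajb9, another ER chaperone, was lower, at -0.34 (SE 0.10, adjusted p = 0.0297). Derl3 and Dnajb9 were the 2 called without surrogate variables too.

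Of 29 targets of the antioxidant regulator NRF2, 3 were called higher and 2 lower, where 3.66% and 2.97% of all genes were. There was 1 higher when (B6.A10 X B6)F1 mouse 6 or 7 was left out. Hmox1, heme oxygenase 1, was at 14.98 to 21.4 CPM (median 17.2) in (B6.A10 X B6)F1 and 14.5 to 119 CPM (median 21.2) in B6, with -0.65 (SE 0.16, adjusted p = 0.00808), and Cbr1, a carbonyl reductase, was lower, at -0.35. Gstp1 and Gstm6, glutathione S-transferases of families with similar copies, were higher by 0.68 and 0.36, and not called without surrogate variables. Of 47 conjugating enzymes, 5 were called higher and 0 lower (3 higher without (B6.A10 X B6)F1 mouse 6 or 7), among them the glucuronosyltransferase gene Ugt1a6b at 0.38 and the sulfotransferase gene Sult5a1 at 0.72. Without surrogate variables, 1 of the 5 was still called, and Ugt1a6b was not, with 0.21 (adjusted p = 0.143). Of 41 P450 genes of families 1 to 3 and their regulators, 1 was called, Nr1i2, the xenobiotic receptor PXR, which was lower, at -0.36 (SE 0.084, adjusted p = 0.00409), with 52.2 to 74.4 CPM (median 58.1) in (B6.A10 X B6)F1 and 52.8 to 95.8 CPM (median 69.0) in B6.

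Of 55 genes of amino acid catabolism and the urea cycle, 2 were called higher and 2 lower, with a median of 0.03. For this and the lists below, 3.66% of all genes were called higher and 2.97% lower. Agxt2, a mitochondrial aminotransferase, and Haao, an enzyme of tryptophan breakdown, were higher by 0.38 and 0.23, and Tdo2, which opens the ring of tryptophan, and Arg1 were lower, at -0.29 and -0.20. None of the 4 was called without surrogate variables. The circadian clock gave 1 call of 24. Cholesterol synthesis gave 1 of 24, Ebp, a sterol isomerase, at 0.15, which was not called without surrogate variables, with 0.015 (adjusted p = 0.914). The count for cholesterol synthesis was 2 without (B6.A10 X B6)F1 mouse 4 or B6 mouse 3, 7, 9 or 10, 3 without (B6.A10 X B6)F1 mouse 2 or B6 mouse 2, 8 or 16, and 4 without B6 mouse 1. The cell cycle gave 1 of 43, Brca2, a DNA repair gene, at 0.34, a call that was lost in 8 of the 28 fits that left out 1 mouse. Iron handling gave 1 of 21, the Hmox1 named above, and p53 targets 2 of 20, Ei24 and Perp, at -0.19 and -0.16, of which Ei24 was not called without surrogate variables and Perp lost its call in 7 of the 28 fits that left out 1 mouse. The ATF4 integrated stress response gave 1 of 30, the Shmt2 of chromosome 10.

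Acute-phase proteins and replication-dependent histones gave no calls in edgeR's quasi-likelihood test, 0 of 30 and 0 of 26, nor in DESeq2's Wald test. At an unadjusted p under 0.05, there were 2 and 6 such genes. The histone genes had a median of 0.25 with surrogate variables and 0.03 without. Of the tissues next to the liver, Fabp4, a lipid-binding protein of fat and endothelium, was the 1 adipose marker measured and was lower, at 7.10 to 11.7 CPM (median 7.61) in (B6.A10 X B6)F1 and 6.49 to 21.9 CPM (median 10.3) in B6, with -0.71 (SE 0.14, adjusted p = 0.000894). The muscle myosin gene Myh4 was at 0 in most mice and reached 17.3 CPM in (B6.A10 X B6)F1 and 1.45 CPM in B6.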

How the data were processed

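The series holds liver RNA-seq of 154 male mice of 24 strains, and the deposited table gives raw counts of reads per gene, which the authors made by aligning reads to mm10 with TopHat2 and counting with HTSeq, as listed in the submitters' processing notes. According to the methods of the study, reads that did not align to mm10, which is the B6 genome, were then aligned to a version of it with A/J variants. The study reports that mapping efficiency in the CSSs did not differ significantly from B6, over the genome or on the substituted chromosome. Whether alignment still differed between B6 and A/J alleles of a gene was not tested here. The tissue was the caudate lobe of male mice from at least 3 breeding cages per strain, and the flow cell of each mouse is not given in the sources used here. Replicates are mice.

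All 13289 genes of the table were tested. Counts of all 24 strains were fitted together with edgeR (version 4.0.16, R version 4.3.3) by quasi-likelihood, with TMM scaling and 5 surrogate variables from svaseq (sva version 3.50.0). The Benjamini-Hochberg adjustment was made once for chromosome 10 and once for the other genes, and all tests were two-sided. The test against B6 was also run on simulated counts with known changes in (B6.A10 X B6)F1 alone and no batch structure. That run adjusted p over all genes together. It does not check the surrogate variables, the separate adjustments or the effect with a second substitution. Symbols and positions came from GENCODE vM21, which matched 13242 genes, while 47 had no position. CPM were computed from the counts with scaled library sizes. Alternatives were 0 or 10 surrogate variables, DESeq2 (version 1.42.0) size factors or its Wald test, a filter of 15 counts in 75% of the mice, another edgeR setting, adjustment over all genes together, the 28 mice alone, and leaving out each of the 28 mice. The fits that left out 1 mouse kept the surrogate variables, library scaling and trend of the spread from all mice. They thus do not show how the surrogate variables depend on a single mouse.

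The named genes were the 10 largest rises and 10 largest falls among called protein-coding genes with a mean log2 CPM of at least 2, on chromosome 10 and elsewhere, the 3 noncoding genes of chromosome 10 with the largest change, and up to 4 called genes with the smallest p per list. A few genes that met this rule are not reported here. Other genes were picked after their values were seen. The comparison and the gene lists were chosen with earlier results of these data known. Depth was 6752637 counts or more per mouse. Within each group, no pair of mice agreed within sampling noise.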

Additional observations from a re-analysis of the deposited data

Results flagged for a closer look

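Of the 108 named genes, 45 had an effect against B6 that differed from the effect with a second substitution. This was the test of the difference in edgeR (adjusted p under the 0.05 threshold), which 439 of all 13289 genes passed (3.3%). The named genes were chosen by their call against B6, and that effect is part of the difference tested. Their share is thus no result of its own, and neither is the direction of the differences. The values that follow are these differences of log2 fold changes for 43 of the 45. On chromosome 10, the difference was 1.96 for Derl3, 0.69 for E130307A14Rik, 0.61 for Sdr9c7, -0.30 for Arg1, -0.42 for Timp3 and -0.64 for Midn. Among the interferon and antigen presentation genes, it was 0.81 for Oasl1, 0.69 for Irf7, 0.67 for Irgm2, 0.54 for Rnf213, 0.34 for H2-T22 and 0.29 for H2-T23. The effects against B6 were the higher ones for all 6.

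For the major urinary protein genes, the difference was 3.48 for Mup17, 2.24 for Mup11, 2.14 for Mup18, 2.10 for Mup16, 1.997 for Mup9, 1.80 for Mup12, 1.35 for Mup8 and 1.33 for Mup6. It was 1.69 for Selenbp2, 0.42 for Lifr and 0.33 for Ghr. These 11 genes were not called against B6 without surrogate variables.

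For genes of fuel metabolism, the difference was -1.59 for Cidec, -1.41 for Lpin1, -0.65 for Plin5, -0.59 for Lpl, -0.47 for Pnpla2, -0.43 for Ldha and -0.24 for Creb1. It was -0.65 for Fabp4 and -0.86 for Fkbp5. All of these were lower against B6 than with a second substitution.

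Among the other named genes, the difference was -1.07 for Nrg4, -1.01 for Tmc7, -0.98 for 2010003K11Rik, -0.90 for Marco, -0.74 for 1810055G02Rik, -0.69 for Hmox1 and -0.50 for Nr1i2. It was 0.79 for Sult5a1, 0.51 for Gstm6, 0.37 for Hsd3b7 and 0.34 for Agxt2.

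In 7 of the 108 genes, 1 (B6.A10 X B6)F1 mouse stood apart from the other 7 by Dixon's test, which flags about 1 in 20 groups by chance. These mice were at 299 CPM for Apon, 24.7 for Nrg4, 262.4 for Ei24, 11.6 for Oasl1, 97.4 for Lpl, 76.3 for Cox5b and 11.7 for Fabp4.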

How the results depend on the processing

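The number of chromosome 10 genes called against B6 stayed within 1.5 times of 71 under every alternative run, and lay between 54 and 81 when 1 mouse was left out. The number called elsewhere was 1227 without surrogate variables, against 811, and between 444 and 965 when 1 mouse was left out. It fell to 444 without (B6.A10 X B6)F1 mouse 6 and to 483 without mouse 7. With 10 surrogate variables, the effect with a second substitution was called for 63 genes of chromosome 10 and for 10 elsewhere, against 99 and 758. Leaving out 1 mouse moved these 2 counts between 96 and 102 and between 711 and 786. Every such fit kept the surrogate variables of all mice, and every mouse left out was from (B6.A10 X B6)F1 or B6. The effect with a second substitution uses no mouse of these groups, so these ranges cannot show how it depends on single mice. The number of genes whose effects differed between the contrasts was 439. It was 687 without surrogate variables, 208 with 10, and between 250 and 519 when 1 mouse was left out. It was 250 without (B6.A10 X B6)F1 mouse 1, 280 without mouse 6, 291 without mouse 7 and 265 without B6 mouse 14. The cause of these shifts was not tested.

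Of the 108 named genes, 53 lost their call without surrogate variables and 1 more, Apoe, changed sign, to -0.012. In the 28 mice alone, without surrogate variables, 56 lost their call and Apoe was at -0.0062. With 10 surrogate variables, 12 lost their call. DESeq2's Wald test kept all 108, and its size factors in edgeR kept 107. Leaving out (B6.A10 X B6)F1 mouse 6 or mouse 7 removed 39 and 36 calls. No paired analysis was possible because the labels give no replicate numbers. A p under the threshold depends on 8 mice in 1 group, and effects of the size seen at low counts, such as Rdh1 or Derl3, have wide errors.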
